A study of Arabidopsis thaliana with 18 samples.

Results

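The genotype by mannitol interaction asks, gene by gene, whether seedlings of a mutant in the BONZAI copine genes change their transcript levels in mannitol by a different amount from wild type. It was measured in 12 RNA-seq libraries of the 18 in the series, 3 in each of 4 groups: bon123 mannitol, bon123 mock, WT mannitol and WT mock. The libraries were chosen by treatment label alone, and each gene was tested for the bon123 difference (mannitol minus mock) minus the WT difference, on log2(TPM + 1). TPM, a relative transcript abundance, is a length-corrected level in which all genes of a library share the same fixed total. Of 33082 listed genes, 21727 reached 1 TPM in at least 3 libraries and were tested.

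All 4 groups were seedlings of Arabidopsis thaliana (Col-0 background), 9 days old and grown vertically. The mutant, labelled bon123t and written here as bon123, is called a triple mutant by the series title, which does not explain the t. The bon123 mannitol and WT mannitol groups received 300 mM mannitol, an osmoticum that draws water from the cells, and the mock groups did not. Treatment was on 1/2 MS medium, for 12 h in the sample labels and 24 h in the text of the series. The alleles are not named in the labels. Nor do they say whether the 3 libraries of a group came from separate plates, so p-values measure the spread between these libraries, which may be technical.

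Copines are calcium-dependent phospholipid-binding proteins of the plasma membrane, and in Arabidopsis BON1 is known as a restraint on immune receptors such as SNC1. Plants under osmotic stress make abscisic acid (ABA), which PYR/PYL receptors sense. Bound receptors inhibit clade A PP2C phosphatases, SnRK2 kinases are released, and ABF transcription factors then act on promoters that carry the ABA-responsive element (ABRE). Dehydrins, LEA proteins and solute-synthesis genes are the textbook targets of this route, while growth, photosynthesis and ribosome production are usually turned down.

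Of the BON genes, BON1 and BON2 were lower in the mutant and BON3 was not, and BON2 transcript was still present there. BON1 (AT5G61900) had 0.25, 0.35 and 0.56 TPM in bon123 mannitol and 0.87, 1.66 and 1.29 TPM in bon123 mock, against 13.6, 17.9 and 15.1 TPM in WT mannitol and 10.1, 11.4 and 11.2 TPM in WT mock. BON2 (AT5G07300) had 4.71, 4.25 and 3.26 TPM in bon123 mannitol, 14.6, 13.9 and 16.2 TPM in bon123 mock, 28.3, 30.5 and 28.4 TPM in WT mannitol and 30.1, 32.6 and 36.3 TPM in WT mock. BON3 (AT1G08860) had 0.4, 0.22 and 0.41 TPM in bon123 mannitol, 0.62, 0.75 and 0.65 TPM in bon123 mock, 0, 0.05 and 0 TPM in WT mannitol and 0.14, 0.08 and 0.17 TPM in WT mock. Its bon123 libraries lay above all WT libraries, so its transcript showed no loss in the mutant. At under 1 TPM in all 12 libraries it was not tested. Both tested genes were lower in bon123 in both treatments without overlap, and the BON2 gap was wider in mannitol. The BON2 interaction was -1.48 ± 0.33 (SE), adjusted p = 0.00111, and -0.95 with median-of-ratios scaling and -0.84 with a trend in gene length removed, checks that are described below. The BON1 interaction was -1.17, adjusted p = 0.00089, and -0.87 with scaling. With the length trend removed it was -0.60 and no longer called. Among the proteins known to act with BON1, the immune receptor SNC1 (AT4G16890) had 14.6, 13.7 and 10.6 TPM in bon123 mannitol, 37.3, 37.7 and 44.6 TPM in bon123 mock, 52.7, 49.7 and 55.9 TPM in WT mannitol and 37.3, 38.9 and 43.4 TPM in WT mock. The bon123 mannitol libraries lay below all others, while both genotypes overlapped in mock. Its interaction of -1.95 ± 0.30 (SE), adjusted p = 4.34e-05 was -1.38 with scaling and -0.58 with the length trend removed. SNC1 belongs to a gene cluster with near-identical copies that includes RPP4, so its single value is uncertain.

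The libraries of the 4 groups differed in tissue markers, in ribosomal RNA and in a trend with gene length, and these differences move with the comparison. The summed level of 32 nuclear photosynthesis genes was 4262 to 4768 TPM in bon123 mannitol, 5273 to 6391 TPM in bon123 mock, 65985 to 83006 TPM in WT mannitol and 107834 to 113554 TPM in WT mock. Green-tissue transcripts were thus an order lower in every bon123 library, and in bulk samples fewer cells of a type and less RNA per cell cannot be told apart. The 12 root hair and endodermis markers summed to 220.5 to 302 TPM in bon123 mannitol, 122.6 to 170.4 TPM in bon123 mock, 77.2 to 214 TPM in WT mannitol and 102 to 178 TPM in WT mock. The 8 stomatal and guard cell markers summed to 5.0 to 10.7 TPM in bon123 mannitol, 13.7 to 16.1 TPM in bon123 mock, 34.1 to 51.1 TPM in WT mannitol and 71.8 to 77.5 TPM in WT mock. Of these, SPCH was at 0 in all bon123 mannitol libraries and EPF2 at 0 in 2 of 3 libraries of each bon123 group. Ribosomal RNA (4 loci) took 5.90% to 10.1% of the total in bon123 mannitol and 0.735% to 2.21% in bon123 mock. In WT mannitol it took 0.84% to 1.32%. In WT mock it took 0.627% and 0.885% in replicates 2 and 3 and 6.10% in replicate 1, which stands apart. Without that library 3657 genes were called higher and 9322 lower. The part of tissue make-up in the results below was not tested.

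**Figure D1:**
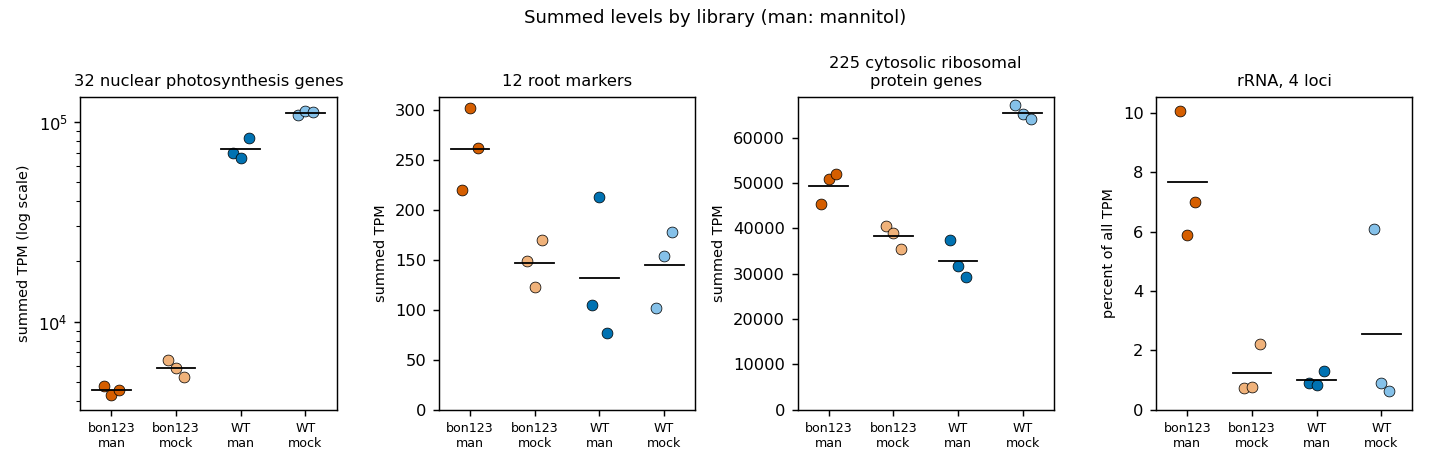
Summed levels in each of the 12 libraries (points) with the group mean (line), for 32 nuclear photosynthesis genes (TPM, log axis), 12 root markers (TPM), 225 cytosolic ribosomal protein genes (TPM) and 4 ribosomal RNA loci (percent of all TPM). Photosynthesis sums are at or under 6391 TPM in all bon123 libraries, and ribosomal RNA is highest in bon123 mannitol and in WT mock replicate 1.

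The response to mannitol differed between the genotypes at most tested genes. The interaction was called (limma-trend, Benjamini-Hochberg adjusted p under 0.05) for 62.3% of tested genes, being higher for 3685 (17.0%) and lower for 9853 (45.3%). The median over all tested genes was -0.42, made of a bon123 response of -0.36 and a WT response of 0.02. This asymmetry depends on scaling: median-of-ratios scaling raised the median by 0.475, to 0.05, and gave 6640 higher and 6113 lower genes, so that 52.1% of calls were higher, against 27.2% in TPM as deposited. Median-of-ratios factors were 0.835 to 0.888 in bon123 mannitol, 1.21 to 1.25 in bon123 mock, 1.07 to 1.21 in WT mannitol and 1.02 to 1.11 in WT mock.

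The interaction also followed gene length, and the trend lay in the mutant. Over 2828 genes of 601 to 1000 bases the median interaction was 0.16, and over 2234 genes longer than 3000 bases it was -1.18. In the longest genes the median response to mannitol was -1.05 in bon123 and 0.12 in WT. Removing the length trend from each library left medians between -0.09 and 0.19 in the 7 length classes and gave 6423 higher and 6729 lower genes. A gene is therefore said to be kept when it was called with TPM as deposited and, in the same direction, under both checks. Both checks raised the median interaction over all genes, by 0.475 with scaling and by 0.415 with the length trend removed. A higher call was thus kept more easily than a lower one, and being kept says little about a higher call. Kept genes numbered 3622 of the 3685 called higher and 5260 of the 9853 called lower. They made up 16.7% and 24.2% of all tested, or 40.9% together. Of these, 401 higher and 1368 lower genes had an interaction of at least 4-fold, 1.85% and 6.30% of all tested.

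**Figure D2:**
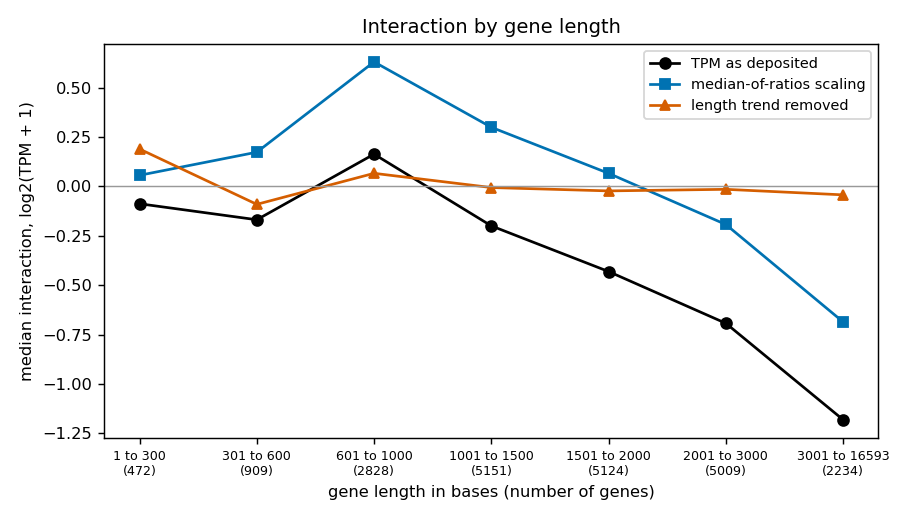
Median interaction (log2 scale) against gene length class (bases, number of genes in brackets) for TPM as deposited, after median-of-ratios scaling and after removal of the length trend. The deposited values fall to -1.18 above 3000 bases, the scaled ones to -0.69, and the corrected ones stay near 0.

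Genes were sorted by the treatment in which the genotypes differed. In mannitol 74.6% of tested genes differed between bon123 and WT (25.4% higher, 49.3% lower), and in mock 73.8% did (40.1% higher, 33.7% lower). Of the 8882 kept genes, 1638 differed between bon123 and WT in mannitol only, 1678 in mock only, 2378 in both treatments in opposite directions, 3147 in both in the same direction but by unequal amounts, and 41 in neither taken alone. For the kept lower genes, the commonest class was the crossing one: in 1914 of 5260, bon123 was below WT in mannitol and above it in mock. For the kept higher genes the commonest class was the unequal one, with 1745 of 3622. Classes of kept genes were set with TPM as deposited. Among all called lower genes the unequal class exceeded the crossing one, with 3323 against 2283. It also did so under median-of-ratios scaling (2379 against 1121) and with the length trend removed (2971 against 1329). When classes were set by size instead of by test, the larger genotype difference being at least 2 times the other in absolute log2 value, 4231 of all called genes fell to mannitol and 4523 to mock, so that the borders between classes are not sharp.

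Mannitol changed 61.5% of tested genes in bon123 (12.6% higher, 48.8% lower) and 50.5% in WT (25.5% higher, 25.0% lower). Sorted by response, 2255 of the 5260 kept lower genes rose in WT and fell in bon123, 2019 fell in bon123 with no call in WT, 696 rose in WT with no call in bon123, and 158 rose in both but less in bon123. Of the 3622 kept higher genes, 1609 fell in WT with no call in bon123, 773 fell in WT and rose in bon123, 691 rose in bon123 with no call in WT, and 345 fell in both but less in bon123. The response of a gene and its interaction share libraries, so these counts describe the calls and give no separate evidence. These counts move with scaling: among all called genes, 2698 rose in WT and fell in bon123, and 1370 did so under median-of-ratios scaling. Of the kept genes, 636 higher and 208 lower ones stayed under 1 TPM in bon123 in both treatments.

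**Figure D3:**
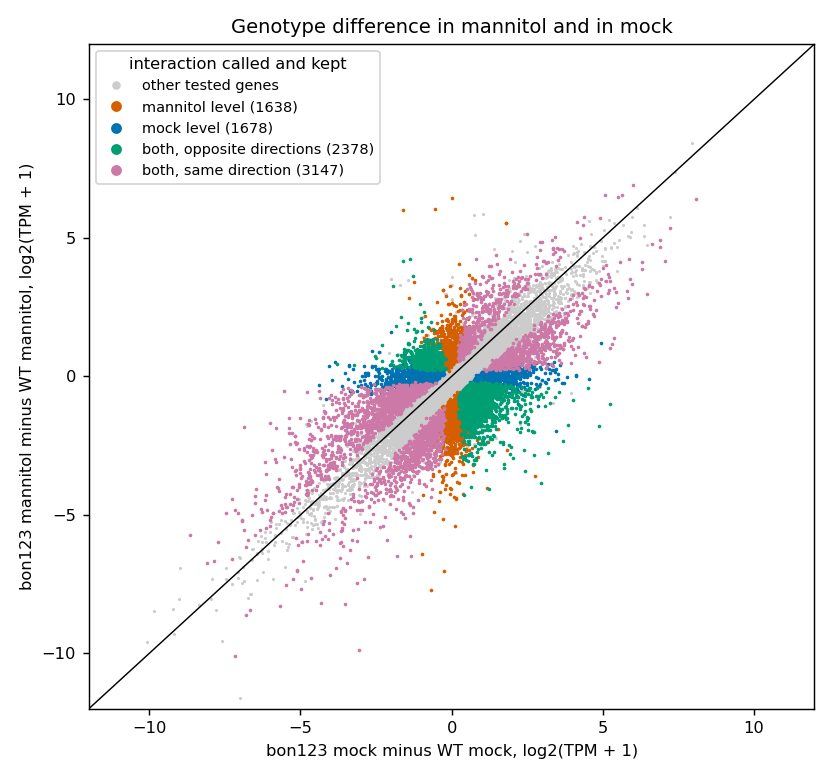
Each tested gene by its bon123 minus WT difference in mock (x axis) and in mannitol (y axis), both in log2(TPM + 1), with kept genes coloured by class and the number in each class. Points on the diagonal have no interaction, points below it a lower one, and the lower right quadrant holds the 1914 genes that were lower in bon123 in mannitol and higher in mock.

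Among kept genes with a symbol and a mean log2 value of at least 2, the largest lower interaction belonged to LEA7 (AT1G52690), a late embryogenesis abundant protein of drying seeds and dehydrated tissue. LEA7 had 16.0, 6.12 and 5.89 TPM in bon123 mannitol, 6.17, 6.39 and 6.82 TPM in bon123 mock, 1579, 2474 and 2020 TPM in WT mannitol and 2.1, 38.1 and 13.1 TPM in WT mock. Only the WT mannitol libraries were high, and the 3 other groups overlapped. The interaction was -7.05 ± 0.85 (SE), adjusted p = 4.21e-06, from a response of 0.34 ± 0.60 in bon123, which was not called, and 7.38 ± 0.60 in WT. RD29B (AT5G52300), the classic ABA reporter gene, had 9.81, 4.50 and 4.96 TPM in bon123 mannitol, 2.4, 2.35 and 3.55 TPM in bon123 mock, 460.4, 786 and 623 TPM in WT mannitol and 0.65, 17.9 and 11.3 TPM in WT mock. It showed the same single high group and an interaction of -5.47 ± 0.87 (SE), adjusted p = 6.26e-05. WT mock replicate 1 was the lowest of its group for both genes, and without it the interactions were -6.07 for LEA7 and -4.40 for RD29B. Without it they were -6.37 for LTP4, -4.89 for LCR67 and -3.03 for HAI1, described below, and all 5 were still called.

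The upstream sequences of these 2 genes are shown because both carry the letters of the ABRE, the site through which ABF factors act. They are the 250 bases before the annotated start in RefSeq TAIR10.1, 5′ to 3′ on the strand of the gene, at chr1:19619474-19619723 (plus strand) for LEA7 and chr5:21236771-21237020 (plus strand) for RD29B. Capitals mark the ABRE letters ACGTGTC, the G-box CACGTG, the dehydration-responsive core CCGAC and the site II letters TGGGCC, each on either strand.
LEA7: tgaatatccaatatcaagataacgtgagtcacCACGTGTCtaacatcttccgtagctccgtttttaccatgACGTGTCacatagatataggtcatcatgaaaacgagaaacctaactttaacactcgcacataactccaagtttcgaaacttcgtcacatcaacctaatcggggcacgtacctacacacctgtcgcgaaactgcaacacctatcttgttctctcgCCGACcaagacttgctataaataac
RD29B: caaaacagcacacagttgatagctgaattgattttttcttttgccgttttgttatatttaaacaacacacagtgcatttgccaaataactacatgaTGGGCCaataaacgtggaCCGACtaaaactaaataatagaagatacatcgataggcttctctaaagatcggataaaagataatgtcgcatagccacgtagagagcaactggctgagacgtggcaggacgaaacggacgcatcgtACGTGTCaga
LEA7 holds the ABRE letters at 2 places, the first overlapping a G-box, and RD29B holds them at 1 place next to the start. Of 21386 promoters of tested genes, 4.23% hold ACGTGTC. Among kept genes lower by at least 4-fold it is 8.23% (111 of 1348), among all kept lower genes 5.95%, and among kept higher genes 3.25%. A match is a description of letters and not a site shown to act.

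Lipid transfer protein genes rose in both genotypes, and far more in WT. LTP4 (AT5G59310), a small secreted protein that carries lipids towards the cuticle, had 7.99, 4.67 and 7.66 TPM in bon123 mannitol, 4.15, 0.62 and 0.61 TPM in bon123 mock, 6000, 7907 and 7496 TPM in WT mannitol and 10.1, 33.2 and 19.8 TPM in WT mock. Its neighbour LTP3 (AT5G59320) had 31.7, 17.0 and 26.6 TPM in bon123 mannitol, 13.8, 5.13 and 3.69 TPM in bon123 mock, 6300, 8856 and 7863 TPM in WT mannitol and 49.8, 147 and 84.6 TPM in WT mock. Both genes rose in bon123 as well, by 1.68 ± 0.45 and 1.75 ± 0.40, but stayed under 32 TPM. The interactions were -6.80 ± 0.64 (SE), adjusted p = 4.02e-07 for LTP4, and -4.71 ± 0.57 (SE), adjusted p = 4.69e-06 for LTP3. The 2 genes are close copies, so reads may be shared between them.

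Other genes with large lower interactions were already high in the mutant without stress. CYP76C2 (AT2G45570), a cytochrome P450, had 47.0, 53.4 and 35.8 TPM in bon123 mannitol, 57.3, 72.6 and 66.1 TPM in bon123 mock, 89.5, 89.4 and 89.7 TPM in WT mannitol and 0.73, 0.76 and 0.8 TPM in WT mock. WT mock was the group apart, at under 1 TPM, and the interaction was -6.21 ± 0.31 (SE), adjusted p = 9.11e-10. HSP17.4 (AT3G46230), a small heat shock protein, had 41.3, 40.6 and 45.3 TPM in bon123 mannitol, 63.3, 63.4 and 60.2 TPM in bon123 mock, 123.27, 153 and 163 TPM in WT mannitol and 2.04, 3.07 and 5.74 TPM in WT mock, with an interaction of -5.61 ± 0.33 (SE), adjusted p = 4.29e-09. THA1 (AT1G08630), a threonine aldolase, had 0.81, 1.80 and 1.27 TPM in bon123 mannitol, 14.5, 15.4 and 18.24 TPM in bon123 mock, 29.7, 18.9 and 22.1 TPM in WT mannitol and 1.53, 2.49 and 2.48 TPM in WT mock, and its interaction was -5.86 ± 0.26 (SE), adjusted p = 4.47e-10. THA1 levels in bon123 mannitol overlapped those of WT mock, and those of bon123 mock lay below those of WT mannitol. It fell in bon123 and rose in WT. ENODL1, a phytocyanin-like protein, and MLO3, a membrane protein of the family known from powdery mildew resistance, showed the same crossing, with interactions of -5.57 ± 0.37 and -5.31 ± 0.25. EGY3, a chloroplast protein, was instead high in WT mannitol only. It had 1.58, 1.26 and 1.29 TPM in bon123 mannitol and 3.13, 2.9 and 2.94 TPM in bon123 mock, against 176, 246 and 218 TPM in WT mannitol and 7.02, 12.8 and 8.22 TPM in WT mock. The defensin LCR67 had an interaction of -5.05 ± 0.61, with WT mannitol highest at 60.01, 30.5 and 51.1 TPM and WT mock between 0 and 0.56 TPM.

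**Figure D4:**
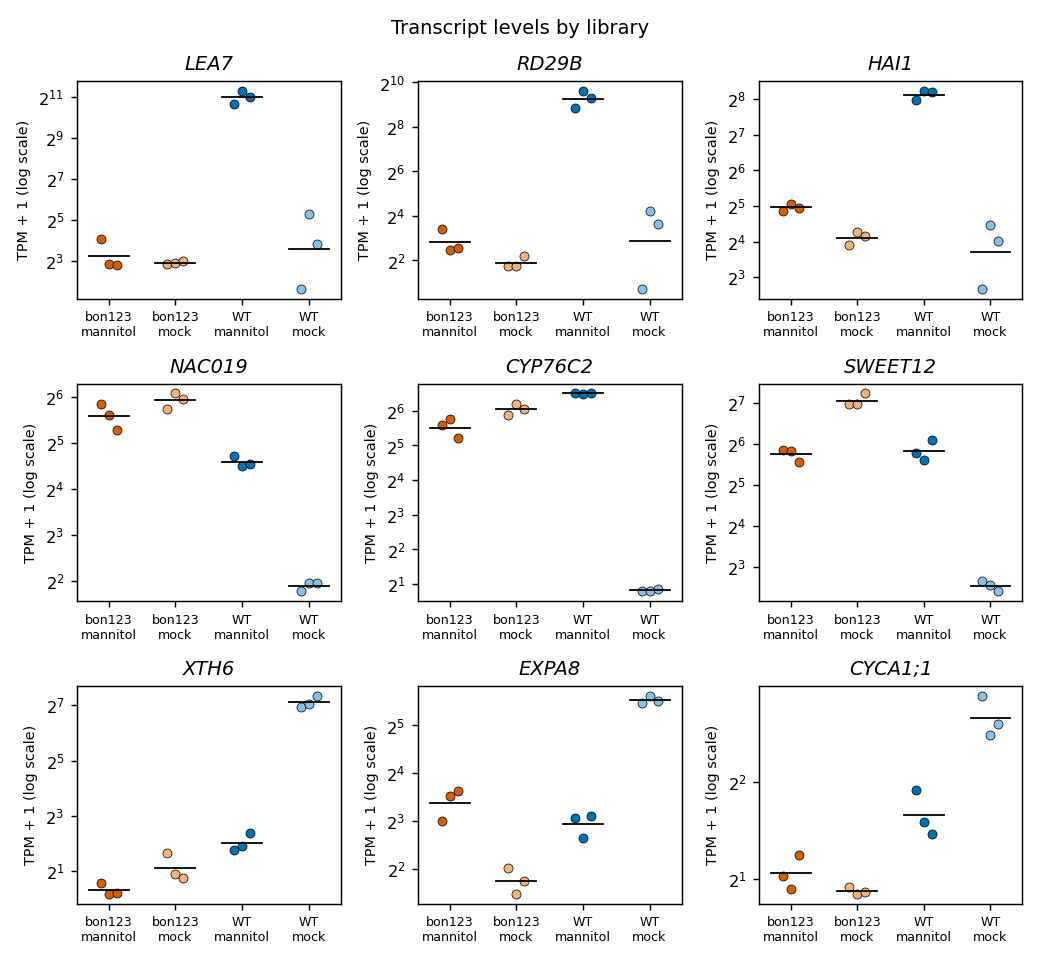
TPM + 1 (log axis) of 9 genes in each library (points), with the mean on the log scale (line), for bon123 mannitol, bon123 mock, WT mannitol and WT mock. LEA7, RD29B and HAI1 are high in WT mannitol only, SWEET12 and CYP76C2 are low in WT mock only, and XTH6, EXPA8 and CYCA1;1 are highest in WT mock.

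Dehydration and LEA genes rose in WT, and most responded less in bon123. All 24 listed members were tested, and the interaction was lower for 18 and higher for 3, with 17 and 3 kept. The called shares, 75.0% and 12.5%, stand beside 45.3% and 17.0% among all genes. The median interaction was -1.94, and -1.49 under median-of-ratios scaling, against -0.42 and 0.05 for all genes. All 24 rose in WT and 16 rose in bon123, with median responses of 1.35 in bon123 and 2.99 in WT. The dehydrin RAB18 had 26.5, 15.4 and 18.4 TPM in bon123 mannitol, 5.24, 4.47 and 5.23 TPM in bon123 mock, 2982, 4380 and 3782 TPM in WT mannitol and 38.6, 77.0 and 46.6 TPM in WT mock, and an interaction of -4.33 ± 0.31 (SE), adjusted p = 3.01e-08. RD22, an ABA-induced cell wall protein, had 4.82, 2.49 and 2.04 TPM in bon123 mannitol and 8.65, 1.89 and 2 TPM in bon123 mock, against 3630, 5283 and 4174 TPM in WT mannitol and 513, 676 and 712 TPM in WT mock. Its interaction was -2.93 ± 0.50 (SE), adjusted p = 0.000123, and its response in bon123, -0.15 ± 0.36, was not called.

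Of the 24, 3 were higher and 3 were not called. KIN1 (AT5G15960), a small cold- and ABA-induced protein, had 535, 406 and 619 TPM in bon123 mannitol, 7.11, 6.03 and 7.96 TPM in bon123 mock, 940.4, 1004 and 616 TPM in WT mannitol and 48.8, 62.8 and 60.4 TPM in WT mock. It rose in both genotypes and by more in bon123, from a bon123 mock level that lay below every WT library, with an interaction of 2.16 ± 0.34 (SE), adjusted p = 5.08e-05. KIN2 behaved likewise (interaction 1.17 ± 0.24 (SE), adjusted p = 0.000479, and 1.76 with scaling), and the 2 near-identical genes may share reads. HVA22D, a protein of the endoplasmic reticulum and ABA response, was the third, at 1.51 ± 0.22. RD29A, the neighbour and relative of RD29B, had 21.1, 14.0 and 21.5 TPM in bon123 mannitol, 1.65, 0.86 and 1.21 TPM in bon123 mock, 401, 484 and 348 TPM in WT mannitol and 50.9, 48.3 and 76.5 TPM in WT mock. Its levels were lower in every bon123 library than in any WT library, yet its responses of 3.14 in bon123 and 2.81 in WT gave an interaction of 0.33 ± 0.34, which was not called (adjusted p = 0.405). It was called higher under both checks, at 0.77 with scaling and 1.12 with the length trend removed. In bon123 mock RD29A was at 0.86 to 1.65 TPM, where log2(TPM + 1) understates a rise. The size of its interaction therefore depends on this floor. The pair RD29A and RD29B thus had unlike interactions in the same libraries, a difference that was not itself tested.

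Clade A PP2C phosphatases, the co-receptors and brakes of ABA signalling, were called lower throughout. All 9 had a lower interaction and all 9 were kept (median -2.15, and -1.68 under median-of-ratios scaling). Among all genes 45.3% were called lower and 24.2% were kept lower. All 9 rose in WT, 4 rose and 2 fell in bon123, and 6 of the 9 differed between genotypes in mannitol only. HAI1 (AT5G59220) had 28.3, 32.4 and 30.1 TPM in bon123 mannitol, 13.9, 18.3 and 17.1 TPM in bon123 mock, 249, 299.7 and 292 TPM in WT mannitol and 5.40, 21.1 and 15.2 TPM in WT mock. WT mannitol was far the highest group, bon123 rose too (0.85 ± 0.31), and the interaction was -3.56 ± 0.44 (SE), adjusted p = 5.2e-06. HAB1 had 19.4, 16.7 and 17.37 TPM in bon123 mannitol, 44.6, 46.6 and 51.9 TPM in bon123 mock, 145, 166 and 154 TPM in WT mannitol and 33.7, 44.2 and 44.0 TPM in WT mock, so that it fell in bon123 (-1.37 ± 0.26) and rose in WT (1.91 ± 0.26). AHG1, a phosphatase of seed ABA response, stayed at or under 0.14 TPM in bon123 in both treatments and reached 6.86, 8.64 and 7.79 TPM in WT mannitol, against 0.21, 0.23 and 0.24 TPM in WT mock. The other members were ABI1 at -1.85, ABI2 at -2.15, HAB2 at -1.70 (-0.93 with the length trend removed), PP2CA at -1.81, HAI2 at -3.01 and HAI3 at -2.09 on the log2 scale of the interaction.

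The kinases and transcription factors downstream of the phosphatases were mostly lower too, whereas the receptors were not. Of 10 SnRK2 kinases, 9 were called lower (90.0%, against 45.3% of all genes) and 8 kept (median -1.48, ratio-scaled -0.90). OST1 (AT4G33950), the SnRK2 of stomatal closure, had 16.7, 16.4 and 15.2 TPM in bon123 mannitol, 31.3, 30.6 and 34.8 TPM in bon123 mock, 50.7, 55.2 and 49.8 TPM in WT mannitol and 19.1, 22.8 and 19.5 TPM in WT mock. It was above WT in mock and below WT in mannitol, with no overlap in either, and its interaction was -2.26 ± 0.20 (SE), adjusted p = 2.38e-07. Of 16 ABA-related transcription factors, 14 were lower (87.5%) and 1 higher, with 13 and 1 kept (median -2.35, ratio-scaled -1.77). ABF4, one of the factors that bind the ABRE, had 29.2, 25.0 and 23.7 TPM in bon123 mannitol, 72.02, 75.2 and 88.8 TPM in bon123 mock, 68.0, 79.1 and 72.5 TPM in WT mannitol and 28.2, 34.5 and 32.5 TPM in WT mock, with an interaction of -2.75 ± 0.24 (SE), adjusted p = 1.56e-07. The homeodomain factor HB12 had 56.5, 34.2 and 46.6 TPM in bon123 mannitol, 81.8, 81.2 and 81.0 TPM in bon123 mock, 343, 402 and 375 TPM in WT mannitol and 46.8, 70.6 and 61.7 TPM in WT mock, with an interaction of -3.49 ± 0.23 (SE), adjusted p = 1.06e-08. NAC019, a stress factor, had 56.3, 47.2 and 37.8 TPM in bon123 mannitol, 52.3, 66.2 and 60.7 TPM in bon123 mock, 25.2, 21.5 and 22.2 TPM in WT mannitol and 2.41, 2.85 and 2.89 TPM in WT mock. It was above WT in bon123 in both treatments and by more in mock, with an interaction of -3.04 ± 0.21 (SE), adjusted p = 2.19e-08. MYB41, a suberin regulator, was the member called higher (1.12 ± 0.37).

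Of 10 PYR/PYL receptors, 2 were called higher and 1 lower, against 17.0% higher and 45.3% lower among all genes. The higher share was thus near that of all genes, and the lower share was below it. The 2 higher receptors were kept. With median-of-ratios scaling the counts were 7 and 0, so the direction for the family depends on scaling. Without WT mock replicate 1 they were 4 and 0. PYL4 (AT2G38310) had 154, 158 and 154 TPM in bon123 mannitol, 228, 244 and 235 TPM in bon123 mock, 15.5, 11.4 and 13.9 TPM in WT mannitol and 49.6, 59.4 and 64.7 TPM in WT mock, and fell in both genotypes, with responses of -0.60 ± 0.15 in bon123 and -2.01 ± 0.15 in WT. Its interaction was 1.41 ± 0.22 (SE), adjusted p = 4.62e-05. PYL8 was the other kept member at 0.46 ± 0.15 (1.04 with scaling), and PYL7 was called lower at -0.57 ± 0.20, a call lost under both checks.

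ABA synthesis and breakdown genes were lower for 8 of 11 tested and higher for 2, with 7 and 2 kept. NCED3 (AT3G14440), the rate-limiting enzyme of stress-induced ABA synthesis, had 15.4, 21.2 and 15.9 TPM in bon123 mannitol, 3.59, 3.21 and 4.55 TPM in bon123 mock, 64.6, 83.4 and 78.8 TPM in WT mannitol and 4.21, 6.37 and 6.31 TPM in WT mock. It rose in both genotypes, and its interaction of -1.59 ± 0.31 (SE), adjusted p = 0.00034 came from mannitol, where the bon123 libraries were below those of WT. AAO3, the oxidase of the last step, had 3.24, 3.62 and 2.96 TPM in bon123 mannitol, 8.60, 8.38 and 8.90 TPM in bon123 mock, 29.6, 32.4 and 31.4 TPM in WT mannitol and 6.12, 7.07 and 7.56 TPM in WT mock, with an interaction of -3.20 ± 0.33 (SE), adjusted p = 9.45e-07. ABA3, which makes the cofactor of AAO3, had 4.24, 3.52 and 2.87 TPM in bon123 mannitol, 21.6, 24.8 and 25.6 TPM in bon123 mock, 11.4, 11.99 and 10.5 TPM in WT mannitol and 6.05, 8.22 and 7.36 TPM in WT mock, so that it fell in bon123 and rose in WT. CYP707A4, a hydroxylase that degrades ABA, had 37.3, 32.8 and 30.9 TPM in bon123 mannitol, 64.1, 61.1 and 63.4 TPM in bon123 mock, 10.1, 6.58 and 10.5 TPM in WT mannitol and 1.71, 2.86 and 2.17 TPM in WT mock, and an interaction of -2.51 ± 0.23 (SE), adjusted p = 3.36e-07. ABA2 was 1 of the 2 higher genes, at 1.01 ± 0.13 (1.57 with scaling). With the length trend removed the interaction was -0.79 for NCED3 and -1.78 for AAO3.

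Genes of compatible solutes, the sugars and proline that hold water in the cell, were lower for 8 of 13 and higher for 2 (7 and 2 kept, median -1.51), against 45.3% lower and 17.0% higher among all genes. The higher count was 4 with scaling and 5 with the length trend removed. SUS3 (AT4G02280), a sucrose synthase, had 49.9, 50.1 and 48.1 TPM in bon123 mannitol, 76.3, 72.2 and 82.8 TPM in bon123 mock, 191, 215 and 198 TPM in WT mannitol and 9.30, 12.3 and 11.4 TPM in WT mock. The interaction was -4.71 ± 0.29 (SE), adjusted p = 7.51e-09, and bon123 lay between WT mannitol and WT mock in both treatments. P5CS1, the first enzyme of proline synthesis, had 37.8, 43.2 and 39.5 TPM in bon123 mannitol, 25.9, 24.8 and 29.1 TPM in bon123 mock, 703, 776 and 800.0 TPM in WT mannitol and 122.62, 183 and 145 TPM in WT mock, with an interaction of -1.77 ± 0.28 (SE), adjusted p = 6.54e-05 and -0.92 with the length trend removed. GOLS2, a galactinol synthase, had 2.03, 3.07 and 2.25 TPM in bon123 mannitol and 0.79, 0.54 and 0.5 TPM in bon123 mock, against 70.0, 127 and 102 TPM in WT mannitol and 8.88, 16.2 and 15.1 TPM in WT mock. Of 7 tested DREB/CBF and early dehydration regulators, 4 were called lower (57.1%) and none higher, close to the 45.3% called lower among all genes. The kept lower ones were 3 of 7, against 24.2% of all genes, and all 7 rose in WT. DREB2A, a factor that binds the CCGAC core, had 28.1, 23.3 and 25.2 TPM in bon123 mannitol, 61.4, 73.5 and 96.9 TPM in bon123 mock, 8.30, 10.8 and 8.59 TPM in WT mannitol and 1.99, 5.35 and 4.80 TPM in WT mock, so that bon123 exceeded WT in both treatments and by more in mock (interaction -2.62 ± 0.36 (SE), adjusted p = 1.48e-05). HK1, a histidine kinase proposed as an osmosensor, had 21.1, 20.0 and 16.4 TPM in bon123 mannitol, 145, 135 and 143 TPM in bon123 mock, 9.35, 8.23 and 10.04 TPM in WT mannitol and 9.86, 10.6 and 9.81 TPM in WT mock, and the bon123 mock libraries stood apart, with an interaction of -2.71 ± 0.16 (SE), adjusted p = 4.5e-09 and -1.43 with the length trend removed. It was 1 of 10 called lower (52.6%) among 19 osmosensing, calcium pump and channel genes, a share near the 45.3% of all genes. Of the 10 lower calls 7 were kept, and among all genes 5260 of 9853 lower calls were. None of the 19 was higher as deposited, but removal of the length trend gave 8 higher and 8 lower. For these 19 the median was -0.86 as deposited, -0.29 after scaling and -0.05 with the length trend removed, and their median length was 2809 bases, against 1646 for all genes.

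**Figure D5:**
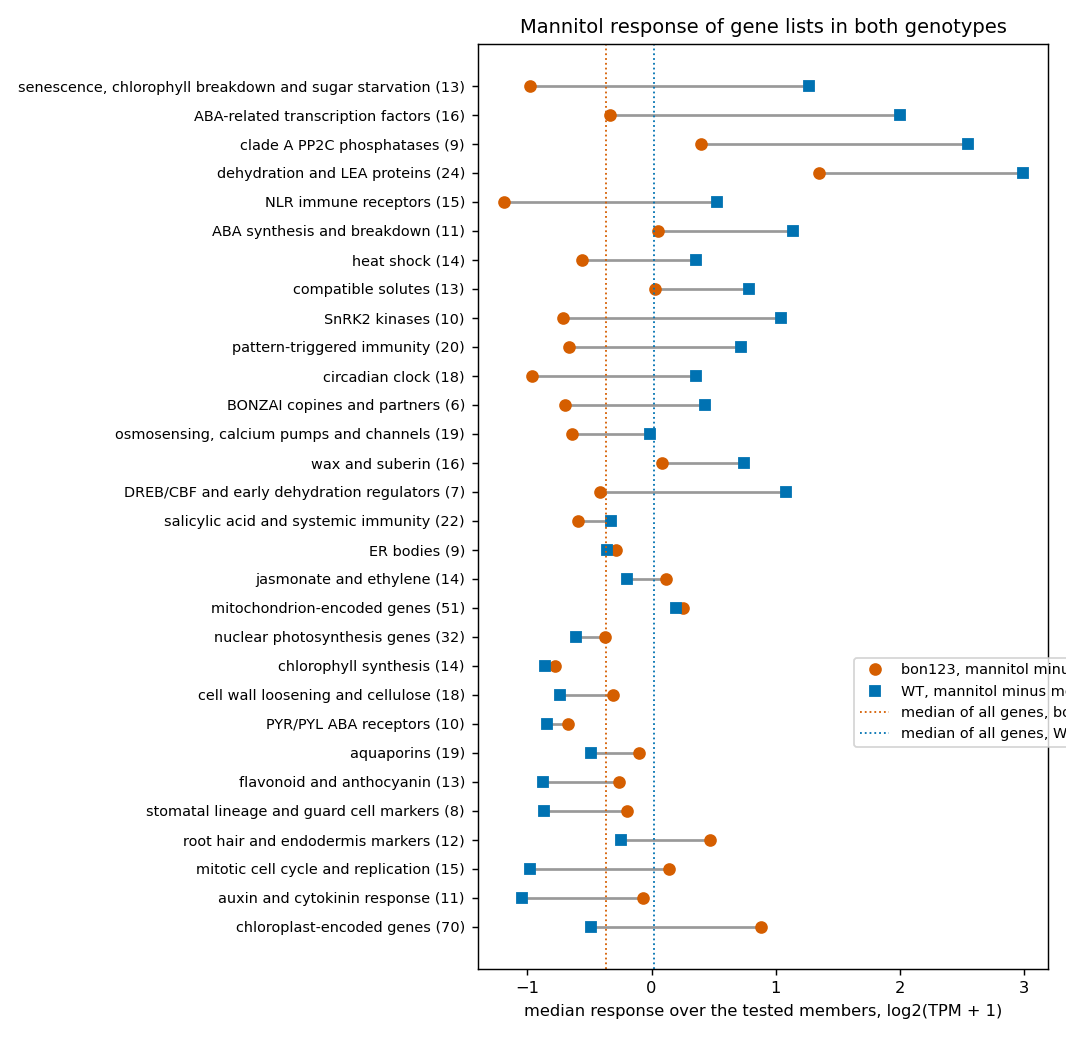
Median response to mannitol (mannitol minus mock, log2 scale) of each gene list in bon123 (circles) and WT (squares), ordered by the median interaction, with the number of tested members in brackets and the medians of all genes as dotted lines. Senescence, ABA-related and dehydration lists have WT far to the right of bon123, while chloroplast-encoded, auxin and cytokinin, and mitotic genes have WT to the left.

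Senescence, chlorophyll breakdown and sugar starvation genes, taken as 1 list, had the lowest median of any list, at -2.51 (ratio-scaled -1.92). All 13 were called lower, against 45.3% of all genes, and 11 of them were kept. PAO (AT3G44880), the oxygenase that opens the chlorophyll ring, had 30.0, 23.8 and 21.9 TPM in bon123 mannitol, 54.5, 55.1 and 51.0 TPM in bon123 mock, 366, 385 and 365 TPM in WT mannitol and 37.8, 46.6 and 50.8 TPM in WT mock. It fell in bon123 and rose in WT, with an interaction of -4.09 ± 0.25 (SE), adjusted p = 5.88e-09. SAG29, a sugar transporter of senescing leaves also named SWEET15, had 50.6, 38.2 and 39.3 TPM in bon123 mannitol, 12.8, 15.6 and 11.4 TPM in bon123 mock, 1227, 1285 and 1317 TPM in WT mannitol and 42.9, 45.9 and 44.2 TPM in WT mock. It rose in both genotypes, and its interaction was -3.20 ± 0.17 (SE), adjusted p = 1.98e-09. SAG13, a senescence marker, was highest in the mutant: 714, 726 and 559 TPM in bon123 mannitol and 801, 1050 and 874 TPM in bon123 mock, against 353, 341 and 280.1 TPM in WT mannitol and 30.0, 17.3 and 22.9 TPM in WT mock. SEN1, a dark-induced gene, had 47.4, 24.6 and 28.7 TPM in bon123 mannitol, 247, 274 and 316 TPM in bon123 mock, 104, 130.5 and 114 TPM in WT mannitol and 162, 253 and 235 TPM in WT mock, and fell in both genotypes, with an interaction of -2.19 ± 0.32 (SE), adjusted p = 2.65e-05.

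For other genes the genotypes differed in mock only. SWEET12 (AT5G23660), a sucrose exporter, had 57.2, 55.8 and 46.5 TPM in bon123 mannitol, 124, 125 and 150.1 TPM in bon123 mock, 54.4, 47.9 and 67.5 TPM in WT mannitol and 5.23, 4.89 and 4.27 TPM in WT mock. In mannitol the genotypes overlapped, in mock they did not, and the interaction was -4.61 ± 0.20 (SE), adjusted p = 4.47e-10. The chitinase CHI (AT2G43570) had 608, 543 and 516 TPM in bon123 mannitol, 426, 505 and 437 TPM in bon123 mock, 546, 495 and 603 TPM in WT mannitol and 26.4, 20.0 and 30.0 TPM in WT mock, so that only WT mock was low (interaction -4.10 ± 0.28 (SE), adjusted p = 1.66e-08). IVD (AT3G45300), which breaks down leucine, had 90.7, 84.3 and 79.5 TPM in bon123 mannitol, 279.7, 307 and 371 TPM in bon123 mock, 97.8, 111 and 94.0 TPM in WT mannitol and 21.1, 26.3 and 25.3 TPM in WT mock, with an interaction of -3.91 ± 0.16 (SE), adjusted p = 2.89e-10. Heat shock genes were lower for 11 of 14 (78.6%, against 45.3% of all genes), with 9 kept and none higher (median -1.68). HSP22.0 had 3.01, 1.13 and 1.31 TPM in bon123 mannitol, 0.84, 0.78 and 0.64 TPM in bon123 mock, 54.2, 55.9 and 42.3 TPM in WT mannitol and 0.51, 0.25 and 0.3 TPM in WT mock, and was high in WT mannitol only. HSP101, a chaperone of heat tolerance, was high in bon123 mock only, with 8.10, 9.74 and 7.90 TPM in bon123 mannitol, 31.5, 36.6 and 37.7 TPM in bon123 mock, 6.95, 8.54 and 7.77 TPM in WT mannitol and 6.89, 7.66 and 7.71 TPM in WT mock. Its interaction was -1.97 ± 0.27 (SE), adjusted p = 1.55e-05, and -0.998 with the length trend removed.

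Immune receptors and pattern-triggered immunity genes were mostly lower, and salicylic acid genes were mixed. Of 15 NLR immune receptors, 14 were lower (93.3%, against 45.3% of all genes) and 10 kept, with none higher. Of the 15, 14 fell in bon123 and 8 rose in WT. These are long genes (median 3644 bases), and their median interaction was -1.84 as deposited, -1.35 after scaling and -0.78 with the length trend removed. RPP1 had 6.54, 7.21 and 5.51 TPM in bon123 mannitol, 23.9, 21.1 and 27.6 TPM in bon123 mock, 48.4, 43.8 and 46.9 TPM in WT mannitol and 30.2, 30.3 and 31.9 TPM in WT mock, with an interaction of -2.34 ± 0.33 (SE), adjusted p = 1.86e-05 and -0.87 with the length trend removed. Of 20 pattern-triggered immunity genes, 18 were lower (90.0%) and 13 kept, and in mock bon123 exceeded WT at 18. CYP71A13, of camalexin synthesis, had 21.3, 16.4 and 15.6 TPM in bon123 mannitol, 26.8, 26.4 and 17.41 TPM in bon123 mock, 30.5, 24.6 and 36.9 TPM in WT mannitol and 1.32, 0.86 and 1.74 TPM in WT mock, with an interaction of -4.15 ± 0.42 (SE), adjusted p = 7.93e-07. WRKY33, its regulator, had 37.9, 31.1 and 31.1 TPM in bon123 mannitol, 97.1, 110.2 and 109.6 TPM in bon123 mock, 48.7, 53.2 and 65.1 TPM in WT mannitol and 17.5, 24.3 and 27.4 TPM in WT mock, and an interaction of -2.88 ± 0.23 (SE), adjusted p = 8.56e-08. Of 22 salicylic acid genes, 2 were higher and 9 lower, with 2 and 5 kept. These called shares, 9.1% and 40.9%, were below the 17.0% and 45.3% of all genes. The median changed sign with scaling, being -0.23 as deposited and 0.31 after median-of-ratios scaling, where 5 were higher and 5 lower. PR1, the salicylic acid marker, had 1840, 1025 and 1021 TPM in bon123 mannitol, 2470, 3055 and 2057 TPM in bon123 mock, 2.46, 8.42 and 0.41 TPM in WT mannitol and 27.3, 1.51 and 13.6 TPM in WT mock. Both bon123 groups were far above WT, and the interaction of 0.50 ± 1.242 was not called. PR5 was lower (-2.89 ± 0.43 (SE), adjusted p = 3.05e-05), with 146, 118 and 125 TPM in WT mannitol as the high group.

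Clock genes were lower for 12 of 18 and higher for 2, with 9 and 2 kept, against 45.3% lower and 17.0% higher among all genes. In bon123 5 rose and 13 fell, and in WT 10 rose and 1 fell. The median was -1.31 as deposited, -0.72 after scaling and -0.40 with the length trend removed. Without WT mock replicate 1 the higher count was 4. LNK2 (AT3G54500), a coactivator of the morning loop, had 29.2, 26.8 and 21.98 TPM in bon123 mannitol, 372, 416 and 414 TPM in bon123 mock, 215, 226 and 235 TPM in WT mannitol and 320.3, 324 and 292 TPM in WT mock. Here bon123 mannitol was the low group and the interaction was -3.43 ± 0.34 (SE), adjusted p = 5.76e-07. PRR7 and PRR9, morning repressors, had the same pattern, with 11.6, 10.4 and 7.51 TPM of PRR9 in bon123 mannitol and 69.9, 76.6 and 86.6 TPM in bon123 mock, against 54.9, 52.5 and 52.9 TPM in WT mannitol and 49.5, 55 and 52.6 TPM in WT mock. FKF1, an evening-phased blue light receptor, was the opposite, with 7.73, 5.19 and 6.42 TPM in bon123 mannitol, 1.16, 1.62 and 1.79 TPM in bon123 mock, 0.76, 0.74 and 0.65 TPM in WT mannitol and 0.55, 0.15 and 0.12 TPM in WT mock. Its interaction was 1.11 ± 0.24 (SE), adjusted p = 0.000734, and 1.71 with the length trend removed. The labels give no hour of harvest.

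Cell wall genes were among the largest higher interactions. XTH6 (AT5G65730), a xyloglucan-remodelling enzyme of the cell wall, had 0.47, 0.13 and 0.14 TPM in bon123 mannitol, 2.14, 0.85 and 0.7 TPM in bon123 mock, 2.36, 2.76 and 4.14 TPM in WT mannitol and 122.64, 132 and 162 TPM in WT mock. Only WT mock was high. The gene fell in both genotypes, with log2 responses of -0.79 in bon123 and -5.11 in WT, with an interaction of 4.32 ± 0.31 (SE), adjusted p = 2.85e-08. At 0.7 to 2.14 TPM in bon123 mock, log2(TPM + 1) leaves little room for a fall in the mutant. The size of the XTH6 interaction therefore depends on this floor. EXPA8 (AT2G40610), an expansin that loosens the wall, had 7, 10.6 and 11.4 TPM in bon123 mannitol, 3.04, 1.80 and 2.36 TPM in bon123 mock, 7.41, 5.28 and 7.63 TPM in WT mannitol and 43.2, 48.1 and 44.6 TPM in WT mock. It rose in bon123 and fell in WT, with an interaction of 4.23 ± 0.25 (SE), adjusted p = 3.89e-09. EXPB3, a beta-expansin, had 18.7, 25.7 and 19.0 TPM in bon123 mannitol, 4.12, 3.63 and 4.54 TPM in bon123 mock, 24.7, 17.62 and 26.9 TPM in WT mannitol and 80.6, 81.1 and 71.0 TPM in WT mock, and the genotypes differed in mock only (interaction 3.83 ± 0.24 (SE), adjusted p = 6.99e-09). Of 18 cell wall genes, 7 were higher (38.9%) and 3 lower (16.7%), against 17.0% and 45.3% of all genes. Of these calls 7 and 2 were kept, and each check raised the higher count to 12. The cellulose synthases CESA1, CESA3 and CESA6 were not called as deposited, with interactions from 0.03 to 0.34. All 3 were called higher under both checks, at 0.62 to 0.92 with scaling and 1.28 to 1.57 with the length trend removed.

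Mitotic cell cycle and replication genes mostly fell in WT (12 of 15), while in bon123 2 rose and 5 fell. Of 15 tested, 12 were higher (80.0%, against 17.0% of all genes) and none lower, and all 12 were kept (median 0.88, ratio-scaled 1.23). Among all genes 3622 of 3685 higher calls were kept. In mock bon123 was below WT at all 15, in mannitol at 7, and for 8 the genotypes differed in mock only. PCNA1, the sliding clamp of DNA replication, had 6.23, 7.62 and 7.01 TPM in bon123 mannitol, 4.21, 3.87 and 4.30 TPM in bon123 mock, 9.10, 6.66 and 5.73 TPM in WT mannitol and 29.4, 24.5 and 23.5 TPM in WT mock, with an interaction of 2.36 ± 0.23 (SE), adjusted p = 5.18e-07. KNOLLE, a syntaxin of cell plate formation, had 4.61, 4.69 and 5.22 TPM in bon123 mannitol, 4.51, 3.6 and 4.85 TPM in bon123 mock, 7.09, 6.87 and 5.31 TPM in WT mannitol and 17.3, 16.7 and 14.5 TPM in WT mock, with an interaction of 1.35 ± 0.22 (SE), adjusted p = 8.27e-05. Auxin and cytokinin response genes were higher for 7 of 11 (63.6%, against 17.0% of all genes) and lower for none. All 7 were kept, and 9 of the 11 fell in WT against 2 in bon123. ARR15, a type-A response regulator, was at or under 0.1 TPM in all bon123 libraries, with 0.44, 0.56 and 0.28 TPM in WT mannitol and 8.09, 5.85 and 6.59 TPM in WT mock. At such levels no fall could be seen in the mutant.

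Cytosolic ribosomal protein genes fell in WT, while more of them rose than fell in bon123. This set was taken from the gene ontology terms of the annotation after the values had been seen, and is given as a description. Of 225 tested genes 202 were higher and 6 lower, and 202 were kept higher, against 17.0% higher and 45.3% lower among all genes. Their median was 1.33, 1.91 after scaling and 1.37 with the length trend removed. In bon123 116 rose and 14 fell, with a median response of 0.34, and in WT 207 fell and none rose, with a median of -0.99. Their summed level was 45435, 50943 and 51860 TPM in bon123 mannitol, 40442, 39055 and 35482 TPM in bon123 mock, 37507, 31754 and 29230 TPM in WT mannitol and 67130, 65106 and 64030 TPM in WT mock. The 4 groups were in the order WT mock, bon123 mannitol, bon123 mock and WT mannitol, and bon123 mock overlapped WT mannitol. These genes supplied 152 of the 464 kept higher genes in the crossing class. RACK1B (RACK1B_AT in the annotation), a scaffold protein of the small ribosomal subunit, had 55.9, 78.5 and 64.0 TPM in bon123 mannitol, 40.7, 37.4 and 37.2 TPM in bon123 mock, 57.2, 47.2 and 31.4 TPM in WT mannitol and 100.04, 91.9 and 104 TPM in WT mock. Its interaction was 1.90 ± 0.25 (SE), adjusted p = 9.34e-06. The gene named emb2171, a ribosomal protein of the large subunit, had 821, 986 and 1027 TPM in bon123 mannitol, 580.4, 592 and 540.0 TPM in bon123 mock, 584, 525 and 509.8 TPM in WT mannitol and 1192, 1152 and 1015 TPM in WT mock, with an interaction of 1.77 ± 0.17 (SE), adjusted p = 3.9e-07. Ribosomal proteins have near-identical copies, so single values are uncertain.

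The site II letters TGGGCC, known from promoters of ribosomal protein and cell cycle genes, were more frequent in this class. They stand within 250 bases of the start in 37.1% (167 of 450) of the kept higher genes of the crossing class, against 15.5% of all 21386 promoters, 17.3% of all kept higher genes and 15.1% of all kept lower genes. The 250 bases upstream of emb2171 are shown because they hold these letters at 2 places, in capitals and once on each strand, at chr3:1167000-1167249 (plus strand, RefSeq TAIR10.1).
emb2171: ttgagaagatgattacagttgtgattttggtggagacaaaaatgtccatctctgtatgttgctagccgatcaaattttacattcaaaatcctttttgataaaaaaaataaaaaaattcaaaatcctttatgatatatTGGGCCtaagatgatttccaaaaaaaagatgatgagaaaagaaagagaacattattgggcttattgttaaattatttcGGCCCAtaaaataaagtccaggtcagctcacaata

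Aquaporins, the water channels, were higher for 10 of 19 and lower for 2, with 10 and 0 kept (median 0.57, ratio-scaled 1.16). The called shares, 52.6% and 10.5%, stand beside 17.0% and 45.3% among all genes. TIP2;1, of the vacuolar membrane, had 23.65, 35.4 and 26.1 TPM in bon123 mannitol, 27.6, 18.25 and 19.3 TPM in bon123 mock, 111, 149.98 and 149 TPM in WT mannitol and 507, 559 and 504 TPM in WT mock, so that it was lower in bon123 in both treatments and fell in WT only (interaction 2.31 ± 0.29 (SE), adjusted p = 6.31e-06). PIP2;5, of the plasma membrane, had 31.6, 35.9 and 36.6 TPM in bon123 mannitol, 13.0, 10.04 and 10.7 TPM in bon123 mock, 14.1, 8.63 and 13.6 TPM in WT mannitol and 11.3, 10.8 and 8.30 TPM in WT mock, and rose in bon123 alone, with an interaction of 1.33 ± 0.24 (SE), adjusted p = 0.000208. Other plasma membrane isoforms were mixed. PIP1;2 and PIP2;2 were not called as deposited, at -0.01 and 0.06, and were called higher with scaling, at 0.59 and 0.65. PIP2;1 was called higher at 0.57 and kept. PIP1;1 was called lower at -0.93, and at -0.59 with the length trend removed. With scaling PIP1;1 was at -0.34 and not called. VSP2 (AT5G24770), a jasmonate-induced storage protein, had 159, 186 and 185 TPM in bon123 mannitol, 21.7, 16.6 and 16.6 TPM in bon123 mock, 53.2, 52.8 and 43.4 TPM in WT mannitol and 78.0, 69.3 and 57.7 TPM in WT mock. It rose in bon123 by 3.21 ± 0.26 and was not called in WT, with an interaction of 3.65 ± 0.36 (SE), adjusted p = 5.97e-07. It was 1 of 5 higher genes among 14 of jasmonate and ethylene, of which 4 were lower, all kept. The list thus had 35.7% higher and 28.6% lower, against 17.0% and 45.3% of all genes. Under each check 7 were higher.

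SAHH2, an enzyme of the methyl cycle, had 159, 257 and 186 TPM in bon123 mannitol, 59.5, 58.1 and 73.7 TPM in bon123 mock, 162, 146 and 140.4 TPM in WT mannitol and 611, 545 and 659 TPM in WT mock, with an interaction of 3.63 ± 0.25 (SE), adjusted p = 1.71e-08. NAS4, a nicotianamine synthase of metal transport, and AGP21, an arabinogalactan protein of the cell surface, were higher by 3.80 ± 0.26 and 3.66 ± 0.43. In AGP21 the levels crossed, with 470.3, 587 and 586 TPM in bon123 mannitol and 204, 168 and 173 TPM in bon123 mock, against 93.8, 143 and 51.4 TPM in WT mannitol and 359.8, 472 and 312 TPM in WT mock. MRPL11, a mitochondrial ribosomal protein, was called higher (4.06 ± 1.33 (SE), adjusted p = 0.015), on bon123 mock libraries that spread over 0, 23.5 and 5.87 TPM.

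Photosynthesis genes had a large genotype difference, and an interaction that depended on scaling. All 32 were lower in bon123 in both treatments, with median differences of -4.21 in mannitol and -4.41 in mock. The interaction was higher for 9 (28.1%) and lower for 2 (6.25%), with 9 and 0 kept (median 0.09). With median-of-ratios scaling 15 were higher and none lower, and the median was 0.69. The 2 lower calls became 1 without WT mock replicate 1 and 4 without bon123 mannitol replicate 1. RBCS1A, a small subunit of Rubisco, had 351, 311 and 334 TPM in bon123 mannitol, 428, 349.7 and 285 TPM in bon123 mock, 5359, 4462 and 6428 TPM in WT mannitol and 13903, 13095 and 14217 TPM in WT mock, and an interaction of 1.28 ± 0.23 (SE), adjusted p = 0.000193. It fell in WT and was not called in bon123. The RBCS copies are near-identical and may share reads, so the value is uncertain. Chloroplast-encoded genes were higher for 48 of 70 tested (68.6%, against 17.0% of all genes) and lower for none, with 44 kept (median 1.28). Of the 70, 46 rose in bon123 and 24 fell in WT. Their summed level was 619.8 to 1114 TPM in bon123 mannitol, 222 to 231 TPM in bon123 mock and 2457 to 3213 TPM in WT mannitol. In WT mock it was 10405 TPM in replicate 1, against 4578 and 3812 TPM in replicates 2 and 3. Without WT mock replicate 1, 12 fell and 1 rose in WT, 42 were higher and none lower in the interaction, and the median was 1.04. As single genes they are uncertain where a pair of repeats holds 2 copies. Mitochondrion-encoded genes were higher for 7 of 51 and lower for 3, with 7 and 2 kept (median 0.08). These called shares, 13.7% and 5.9%, were below the 17.0% and 45.3% of all genes. With scaling 14 were higher (median 0.43), and with the length trend removed 12 were. The lower count was 5 without WT mock replicate 1, 5 without WT mannitol replicate 3 and 6 without WT mock replicate 3. In all, 32 of the 51 were above WT in bon123 in mannitol.

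The remaining lists were mixed, and their counts stand beside 17.0% called higher and 45.3% called lower among all genes. Root hair and endodermis markers were higher for 3 of 12 and lower for 1 (3 and 0 kept), and scaling by median of ratios raised the higher count to 9. It was also 9 without WT mannitol replicate 2 and 6 without WT mock replicate 1. Stomatal markers were higher for 4 of 8 and lower for 2 (4 and 1 kept). The higher ones include SPCH and EPF2, whose bon123 levels at or near 0, given above, left little room for a fall. The anion channel SLAC1 was lower at -1.82 ± 0.35, and WT mannitol, with 10.5, 7.81 and 7.62 TPM, was above all other libraries. Wax and suberin genes were called lower for 8 of 16 and higher for 4, near the 45.3% and 17.0% of all genes. All of these calls were kept. Among all genes 5260 of 9853 lower calls and 3622 of 3685 higher calls were kept. CER1, of alkane wax synthesis, had 2.4, 1.63 and 2.09 TPM in bon123 mannitol, 2.93, 2.72 and 2.06 TPM in bon123 mock, 203, 278 and 225 TPM in WT mannitol and 33.9, 35.6 and 38.0 TPM in WT mock, and rose in WT alone (interaction -2.90 ± 0.20 (SE), adjusted p = 2.19e-08). Flavonoid genes were higher for 5 of 13 and lower for 2, all kept, and 8 were higher with scaling. The higher count was 3 without WT mock replicate 1, WT mannitol replicate 2, bon123 mock replicate 2 or either of bon123 mannitol replicates 1 and 2. PAP2, an anthocyanin regulator, was at or under 0.18 TPM in all bon123 libraries and had 54.2, 23.9 and 25.4 TPM in WT mannitol, against 2.32, 1.76 and 3.61 TPM in WT mock. Chlorophyll synthesis genes were higher for 4 of 14 and lower for 2, with 4 and 1 kept, and ER body genes higher for 2 of 9 and lower for 3, with 2 and 0 kept. For both lists scaling moved the counts, giving 10 higher chlorophyll synthesis genes and 1 lower ER body gene by median of ratios.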

How the data were processed

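Per the submitters' processing notes, the authors' genome build was TAIR10 and their tools included RSEM 1.3.1, HISAT2 2.1.0 and DESeq2 1.24.0, with no roles given. The deposited table holds TPM values made by the authors, with 1 column per library. Its header names no unit, and TPM was read from column sums of 999989 to 999999. TPM is a share of the library, so more ribosomal RNA lowers the value of every other gene. Read depth cannot be recovered from it.

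Values were taken as log2(TPM + 1), and genes reaching 1 TPM in fewer than 3 libraries were left out. A limma-trend model (limma 3.58.1, R 4.3.3) with 1 mean for each of 6 groups used all 18 libraries, ABA-treated ones included, so that they share an estimate of the spread. Benjamini-Hochberg adjustment ran over 21727 genes in each comparison, tests were two-sided, and n = 3 per group. The checks were median-of-ratios scaling and removal, in each library, of a lowess trend with gene length (span 0.3). The model code was tested on simulated data.

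Genes named are the BON genes, the 10 largest kept interactions in each direction with a symbol and a mean log2 value of at least 2, the 3 largest in each class and direction, and 4 called members of each of 30 lists. Further genes were named after their values were seen. The members and lists were chosen with earlier results of these data known. Symbols, positions and promoters come from RefSeq TAIR10.1, which matched 32547 identifiers.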

Additional observations from a re-analysis of the deposited data

Results flagged for a closer look

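All results here are differences between the genotypes in their response to mannitol, tested as the interaction in limma-trend with Benjamini-Hochberg adjustment over 21727 genes (n = 3 libraries per group). They are the counts of 3685 higher and 9853 lower genes and the 10 named genes with the largest interaction in each direction.

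In the lower direction the log2 interactions were -7.05 for LEA7, -6.80 for LTP4, -6.21 for CYP76C2, -5.86 for THA1 and -5.61 for HSP17.4. They were -5.57 for ENODL1, -5.47 for RD29B, -5.31 for MLO3, -5.15 for EGY3 and -5.05 for LCR67.

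In the higher direction they were 4.32 for XTH6, 4.23 for EXPA8, 3.83 for EXPB3, 3.80 for NAS4 and 3.66 for AGP21. They were 3.65 for VSP2, 3.63 for SAHH2 and 4.06 for MRPL11. The small nuclear RNAs U4.2 and U2.5 were at 6.58 and 4.64. U4.2 had 204, 237 and 113 TPM in bon123 mannitol, 11.1, 0 and 0 TPM in bon123 mock, 19.0, 0 and 0 TPM in WT mannitol and 0, 0 and 37.0 TPM in WT mock, and its call was lost in 5 of the fits that left out 1 library.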

How the results depend on the processing

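Median-of-ratios scaling gave 6640 higher and 6113 lower genes, and removal of the length trend gave 6423 higher genes. Sorting by size put 4523 genes in the mock class and 2449 in the class with the same direction in both treatments. With the length trend removed the interactions of GUN5 and SCR changed sign, to 0.59 and 0.19. GUN5 was then called higher, and SCR was not called. The cause was not tested. Leaving out 1 library at a time gave 3327 to 3680 higher and 9275 to 9818 lower genes, and 2649 to 3129 genes in the mannitol class, 2483 to 3026 in the mock class, 2375 to 2597 with opposite directions, 4540 to 4881 with the same direction and 129 to 161 in neither. Of 137 named genes, 128 kept their call when any 1 library was left out. The 9 that lost it were U4.2, PYL7, GUN5, BGLU21, GLL23, NAI1, FLS1, EXPA7 and SCR. Scaling ended the call of 7 of the 137. Removal of the length trend ended that of 4 besides the changes of GUN5 and SCR. Whether replicate numbers pair the libraries cannot be settled with 3 libraries per group. Of 18 same-number correlations, 2 exceeded 0.1, both between WT mannitol and WT mock (0.153 and 0.181). The range was -0.07 to 0.18, and 5 of 12 libraries correlated best with their own number. With the replicate block 3645 genes were higher and 9777 lower, and 137 of 137 named genes kept their call. Leaving out ribosomal RNA and organelle genes gave 4160 and 9033. TPM keeps no read depth, so the precision of genes near 0 is unknown.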

Other observations

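Small RNAs of the splicing and ribosome machinery had positive median interactions. Of 22 small nuclear RNAs tested, 5 were higher and 1 lower in the interaction (median 2.26), and of 27 small nucleolar RNAs 12 were higher and none lower (median 1.45), against 17.0% and 45.3% of all genes. The 4 ribosomal RNA loci were all higher (median 3.22). U2.5, a spliceosomal RNA, had 84.8, 95.4 and 93.5 TPM in bon123 mannitol, 0, 28.8 and 23.3 TPM in bon123 mock, 3.69, 9.59 and 12.5 TPM in WT mannitol and 26.5, 20.9 and 14.8 TPM in WT mock.

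The metallothionein MT1A was listed at 28369, 28467 and 30532 TPM in bon123 mannitol, and at 15578, 0 and 0 TPM in bon123 mock. It was listed at 0 in all WT libraries. Reads of its near-identical copies cannot be told apart here, and no fold change is given.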
